A study of Mus musculus with 6 samples.

Results

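The genes described here are *Rel* and 9 other genes of the NF-κB family, chosen by symbol from the 56748 genes of the count table. They are the subunit genes *Rel*, *Rela*, *Relb*, *Nfkb1* and *Nfkb2*, the IκB-class genes *Nfkbia*, *Nfkbib*, *Nfkbie* and *Nfkbiz*, and *Tnfaip3*. The last 5 are called inhibitor genes below for short, although *Nfkbiz* encodes a nuclear protein of the IκB class. All 10 were found, and all 10 passed the filter on low counts that left 13888 genes for the comparison. The family was taken up with values of this same comparison known, so the differences between genotypes of these 10 genes are given as a description. Counts of genes past a threshold are printed below, and nothing is read from them.

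Hearts came from 3 Pontin cTG mice and 3 WT littermates. The transgene of the Pontin cTG mice is human Pontin with a flag tag, expressed from the αMHC promoter in cardiomyocytes, and the littermates lack it. All 6 were males that received 2 weeks of Ang-II from mini-osmotic pumps, at a daily dose of 1.5 mg/kg BW, started at 10 weeks of age, so no heart without Ang-II was compared. Each library is RNA from heart tissue of a single mouse, and a gene's level there depends on the number of cells that express it as well as on the RNA per cell, which cannot be told apart.

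The WT libraries (replicates 1 to 3) held 13194038, 12436822 and 12772244 counts in total, and the Pontin cTG libraries 14584102, 15279201 and 16888124. The library of Pontin cTG replicate 2 stood apart, at 50.9 on a first principal component (48.6% of the variance) where the other libraries lay between -23.1 and 16.2. The study's methods state that an outlier in such an analysis was left out of the study, but do not name it, while its statistics section states that nothing was excluded. All 6 libraries were used here. Each fit was repeated with every library left out in turn, and the values that moved furthest are given beside many of the results. Cardiomyocyte markers were abundant in every library, with *Actc1*, the cardiac actin gene, at a mean of 16333 TPM. *Ruvbl1*, the mouse gene of Pontin, had 216, 221 and 217 normalised counts in WT against 249.9, 250.02 and 239.95 in Pontin cTG hearts. The transgene is human, and how many of its reads map to mouse *Ruvbl1* is not known. These counts therefore neither check the transgene nor measure the mouse gene alone.

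NF-κB transcription factors are dimers of subunits that share a Rel homology domain. RelA, RelB and c-Rel (encoded by *Rel*) carry a transactivation domain, while *Nfkb1* and *Nfkb2* encode the precursors p105 and p100, which are processed to p50 and p52. The IκB inhibitors encoded by *Nfkbia*, *Nfkbib* and *Nfkbie* hold the dimers in the cytoplasm. A kinase complex downstream of receptors for TNF, IL-1 or microbial products marks these inhibitors for degradation. Several inhibitors, among them *Nfkbia* (IκBα) and *Tnfaip3* (the ubiquitin-editing enzyme A20), are themselves NF-κB targets, so that the pathway shuts itself off. In the heart, NF-κB is known for its part in inflammation and in the response to Ang-II. c-Rel is best known from cells of the immune system.

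Of the 10 genes, *Rel* alone was lower in Pontin cTG than in WT hearts, and the other 9 had higher values. Over all genes tested, 50.2% had a log2 fold change above 0. In 2 of the 10 genes, *Rel* and *Nfkbib*, the groups did not overlap, where 8.33% of all genes tested had groups that did not overlap. Without Pontin cTG replicate 2 the groups of the same pair of genes did not overlap, against 21.5% of all genes. Of the 10 genes, 0 passed a Benjamini-Hochberg adjusted p of 0.05 in the quasi-likelihood test (edgeR), where 0% of all genes passed, and 0 passed in DESeq2, where 0.0039% did. At an unadjusted p under 0.05 there was 1 gene of the 10, *Rel*, in edgeR (2.05% of all genes) and 1 in DESeq2 (0.847% of all genes). Here and below, the DESeq2 shares are over 25633 genes, many of which failed the edgeR filter on low counts. They are thus not over the same genes as the edgeR shares. Because the family was chosen on this contrast, nothing is read from these counts.

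**Figure D1:**
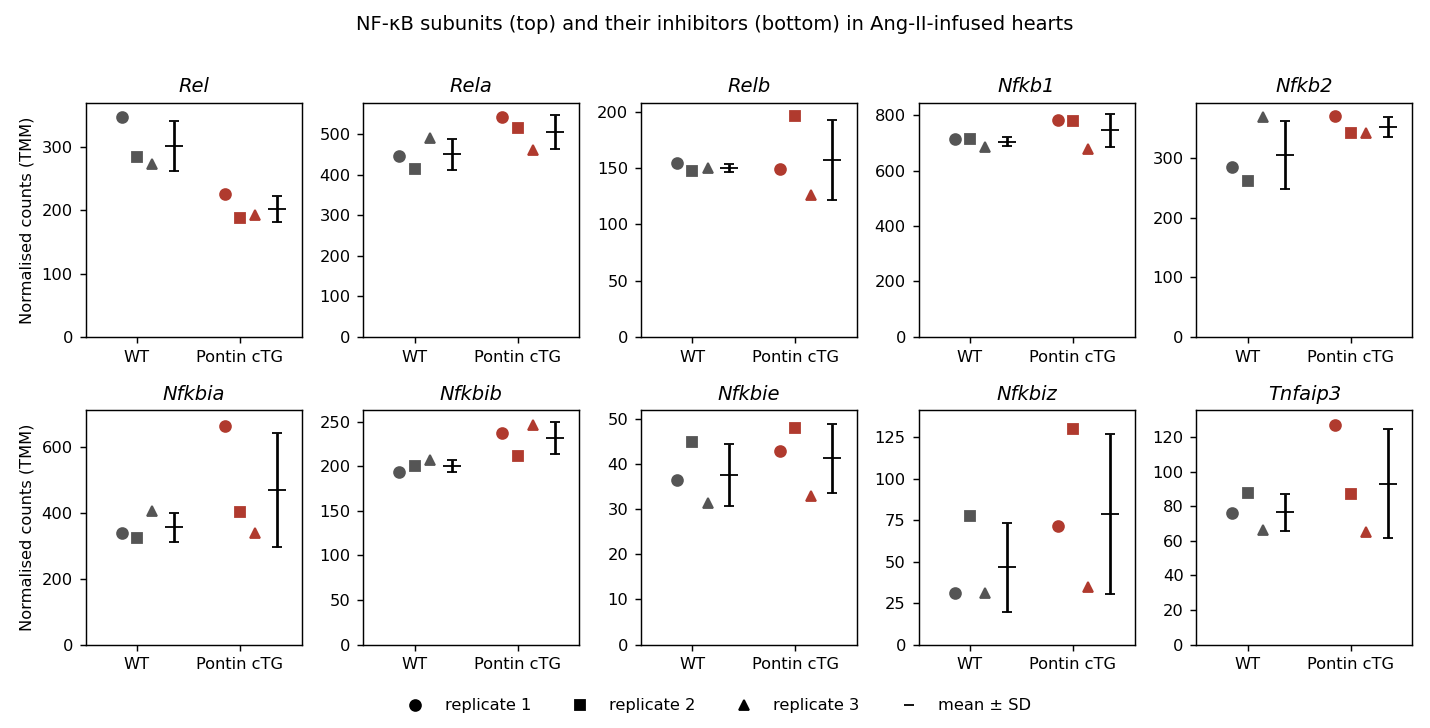
TMM-normalised counts of the 10 genes in each library (vertical axes start at 0), with WT in grey and Pontin cTG in red, a symbol for each replicate, and the mean ± SD of 3 mice beside them. The 3 Pontin cTG hearts lie below the 3 WT hearts for *Rel*, above them for *Nfkbib*, and overlap with them for the other 8 genes.

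*Rel* (ENSMUSG00000020275, GRCm38 chromosome 11 from 23736847 to 23770970, minus strand), the gene of c-Rel, had 347, 284 and 273 normalised counts in WT replicates 1 to 3. In Pontin cTG replicates 1 to 3 it had 226, 188 and 192. The highest Pontin cTG heart was below the lowest WT heart, and WT replicate 1 stood above the other WT hearts. The group means were 301 ± 40.0 in WT against 202 ± 20.4 in Pontin cTG hearts (SD, n = 3 mice each), a log2 fold change of -0.58 (SE, the standard error of the fit, 0.15), or 0.671 of the WT level. Leaving out each library in turn gave log2 fold changes between -0.65 (Pontin cTG replicate 1 left out) and -0.46 (WT replicate 1 left out), and -0.53 without Pontin cTG replicate 2. These values rest on 220 to 315 raw counts of *Rel* per library, and no other gene of the table overlaps it.

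*Rel* was also compared with the other subunits inside each library, which needs no scaling between libraries. These ratios use the same counts of *Rel* as above, so they describe its difference again and are no separate check of it. For every 100 counts of *Rela*, the WT hearts had 77.6, 68.8 and 55.7 counts of *Rel*, a mean of 67.3 ± 11.01 (SD, n = 3). The Pontin cTG hearts had 41.5, 36.6 and 41.8, a mean of 40.0 ± 2.93 (SD, n = 3). The WT hearts thus differed more among themselves than the Pontin cTG hearts did, and the groups stayed apart. Against 100 counts of *Nfkb1*, *Rel* had 42.7 ± 5.05 counts in WT against 27.1 ± 2.58 in Pontin cTG hearts (SD, n = 3 each), again with no overlap.

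**Figure D2:**
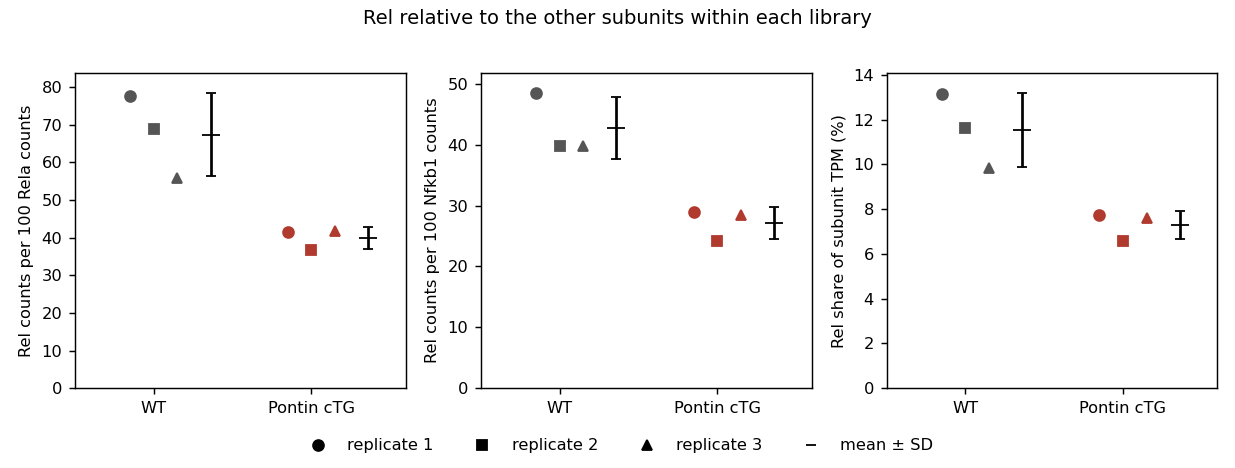
Counts of *Rel* per 100 counts of *Rela* and of *Nfkb1*, and the share of *Rel* in the summed TPM of the 5 subunits, in each library (WT grey, Pontin cTG red, mean ± SD of 3 mice beside the points). In each panel the 3 Pontin cTG hearts lie below the 3 WT hearts.

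To compare levels between genes, counts were divided by gene length and expressed as TPM. *Nfkbia* had the highest level of the family in WT hearts, with 33.7 ± 4.19 TPM (SD, n = 3), followed by *Rela* with 22.3 ± 1.75 and *Nfkbib* with 14.1 ± 0.756. Next came *Nfkb2* and *Nfkb1*, with 10.2 ± 1.87 and 8.90 ± 0.337 TPM, whose WT values overlapped. *Rel* and *Relb*, with 6.13 ± 0.659 and 5.89 ± 0.041 TPM, overlapped as well. *Nfkbie*, *Tnfaip3* and *Nfkbiz* lay lowest, at 1.88, 1.62 and 1.43 TPM, each overlapping with the next. The order of the first 5 genes was the same in Pontin cTG hearts, where *Relb* (6.26 ± 1.72 TPM) stood before *Rel* (4.16 ± 0.511 TPM) with overlapping values. The summed level of the 5 subunits was 53.4 ± 2.94 TPM in WT against 57.2 ± 7.08 TPM in Pontin cTG hearts, and *Rel* made up 11.5 ± 1.67% of it in WT against 7.31 ± 0.621% in Pontin cTG hearts (SD, n = 3 each). The share of *Rela* was 41.7 ± 0.963% in WT against 44.4 ± 0.711% in Pontin cTG hearts.

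The other 4 subunit genes differed less between genotypes than *Rel*. *Rela* (chromosome 19 from 5637483 to 5648130), whose product forms the classical dimer with p50, showed 447, 413 and 489.6 normalised counts in WT against 543, 515 and 459.98 in Pontin cTG hearts. The groups overlapped, and the log2 fold change was 0.17 (SE 0.13), between 0.11 and 0.24 with each library left out. *Nfkb1* (chromosome 3 from 135584655 to 135691547) showed 704 ± 16.6 normalised counts in WT against 746 ± 59.3 in Pontin cTG hearts (SD, n = 3 each). Its log2 fold change of 0.08 (SE 0.12) was 0.05 without Pontin cTG replicate 2 and 0.15 when replicate 3 of that group was left out. *Nfkb1* is the longest of the 10 genes in the table, 12061 bases against 7466 for *Rel*.

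The subunits of the non-canonical arm of the pathway had overlapping groups too. *Nfkb2* (chromosome 19 from 46304320 to 46312385) showed 286, 261 and 370.01 normalised counts in WT against 372, 343 and 342 in Pontin cTG hearts. WT replicate 3 thus lay at the level of the Pontin cTG hearts, and the log2 fold change of 0.20 (SE 0.15) was 0.37 without that library and 0.10 without WT replicate 2. *Relb* (chromosome 7 from 19606217 to 19629438), the partner of p52, had 154, 147 and 149.8 normalised counts in WT against 149.4, 196 and 126 in Pontin cTG hearts. Its log2 fold change of 0.06 (SE 0.19) had the opposite sign with Pontin cTG replicate 2 left out (-0.13) and with limma-voom and sample quality weights (-0.08). Counting without strand cannot separate *Nfkb2* from *Psd* and *4833438C02Rik*, which overlap it on the opposite strand with 336 and 96 counts over all libraries, against 2001 for *Nfkb2*.

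The median log2 fold change was 0.28 over the 5 inhibitor genes and 0.001 over all genes tested, but their high values came from different hearts. The median of the inhibitor genes was 0.12 without Pontin cTG replicate 1 and 0.48 when replicate 3 of that group was left out. *Nfkbia* (chromosome 12 from 55489410 to 55492647), the gene of IκBα, had 339, 323 and 407 normalised counts in WT against 666, 404 and 340.4 in Pontin cTG hearts. Only Pontin cTG replicate 1 lay above all WT hearts. The log2 fold change of *Nfkbia* was 0.40 (SE 0.24), and leaving out Pontin cTG replicate 1 brought it to 0.07.

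The same library held the highest *Tnfaip3* (chromosome 10 from 19000910 to 19015657). Its normalised counts were 76.0, 87.5 and 66.0 in WT against 127, 87.3 and 65.0 in Pontin cTG hearts. The log2 fold change of 0.28 (SE 0.27) was 0.003 without Pontin cTG replicate 1.

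*Nfkbiz* (chromosome 16 from 55811375 to 55838899), which encodes the nuclear and inducible IκBζ, varied most among the 10 genes. It had 30.8, 77.4 and 31.3 normalised counts in WT against 71.3, 130 and 34.6 in Pontin cTG hearts. Replicate 2 was the highest of both groups and the ranges overlapped. The log2 fold change of 0.76 (SE 0.51) was 0.18 without Pontin cTG replicate 2 and 1.34 when WT replicate 2 was left out.

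*Nfkbib* (chromosome 7 from 28758251 to 28767512), the gene of IκBβ, was steadier. It had 194, 199.7 and 207 normalised counts in WT against 237, 211 and 246 in Pontin cTG hearts, with no overlap. Its log2 fold change was 0.21 (SE 0.13) and lay between 0.16 and 0.27 when each library was left out in turn. *Nfkbib* overlaps *Sirt2* on the opposite strand, which had 6752 counts over all libraries against 1313 for *Nfkbib* and a log2 fold change of 0.01. *Nfkbie* (chromosome 17 from 45555703 to 45563169), the gene of IκBε, had 37.5 ± 6.86 normalised counts in WT against 41.3 ± 7.66 in Pontin cTG hearts (SD, n = 3 each). Its log2 fold change of 0.14 (SE 0.28) was 0.01 without Pontin cTG replicate 2 and 0.28 when WT replicate 2 was left out.

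**Figure D3:**
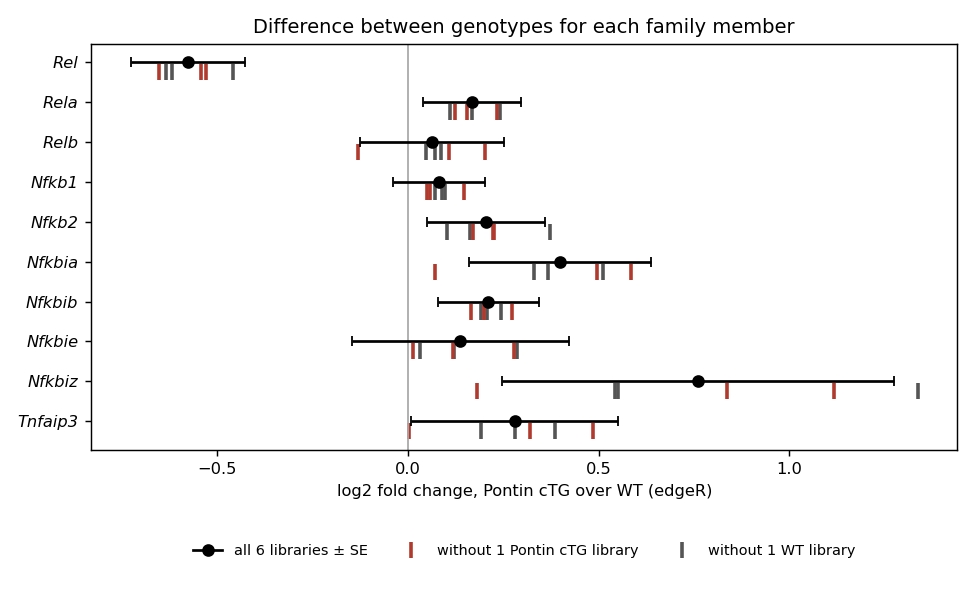
Fold changes on the log2 scale of each gene between Pontin cTG and WT hearts (horizontal axis) from all 6 libraries with its standard error (black), and below it the value with each library left out in turn (red ticks, without a Pontin cTG library; grey ticks, without a WT library). *Rel* stays between -0.65 and -0.46, while the ticks of *Nfkbia*, *Nfkbiz* and *Tnfaip3* spread widely.

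The bases upstream of *Rel* and *Nfkbia* are shown because, of the 7 family genes with a sequence window, these had the lowest and the highest log2 fold change while both hold an NF-κB-like motif. The motif searched was GGG, any 2 bases, TT, any 1 base and CC, in that order and on either strand, in the 250 bases before RefSeq gene starts on GRCm38.p6. It was chosen after the sequences had been seen. The window of *Rel* held 249 bases. Capitals mark the matches, and both sequences run 5′ to 3′ on the minus strand, that of *Rel* from chr11:23770971-23771219 and that of *Nfkbia* from chr12:55492648-55492897.
*Rel*: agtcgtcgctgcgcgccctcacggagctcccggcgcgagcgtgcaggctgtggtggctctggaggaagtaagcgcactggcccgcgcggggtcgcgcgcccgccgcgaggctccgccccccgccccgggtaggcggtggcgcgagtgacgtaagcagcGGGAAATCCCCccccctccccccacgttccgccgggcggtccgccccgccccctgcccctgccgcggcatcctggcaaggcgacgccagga
*Nfkbia*: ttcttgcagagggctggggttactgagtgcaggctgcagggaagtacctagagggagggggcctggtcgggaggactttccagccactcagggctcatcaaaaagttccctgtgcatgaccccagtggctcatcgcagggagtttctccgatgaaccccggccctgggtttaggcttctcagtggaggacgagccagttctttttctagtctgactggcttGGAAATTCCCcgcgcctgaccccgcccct
In *Rel* a pair of matches, GGGAAATCCC and GGAAATCCCC, overlap within a single stretch, the first ending 83 bases before the RefSeq start. In *Nfkbia* the match GGAAATTCCC ended 20 bases before the start. Windows were found for 7 of the 10 genes, and 4 of these genes (*Rel*, *Nfkb2*, *Nfkbia* and *Tnfaip3*) held a match, while *Rela*, *Nfkbib* and *Nfkbie* held none. A gene with several windows was counted if any of them held a match, and *Nfkb2* and *Tnfaip3* each also had a window without a match. The matching windows of *Nfkb2* and *Tnfaip3* overlap annotated exons, as do the windows of *Rela* and *Nfkbib*, so these are not purely upstream sequence. Of 27025 genes with a window, 4.71% held a match. In the list of NF-κB target genes described below, 19 genes had a window and 7 of them (36.8%) held a match. No window was matched for *Relb*, *Nfkb1* and *Nfkbiz*. A match describes the sequence and does not show that a factor binds there.

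The rest of the pathway was described with gene lists written from general knowledge. Together the lists hold 104 genes, the 10 family members included, of which 87 were tested. Leaving out the 10 members, 77 of 94 genes were tested, 44 with higher and 33 with lower values in Pontin cTG hearts, and their median log2 fold change was 0.04. With each library left out this median lay between -0.0042 (Pontin cTG replicate 1) and 0.10 (Pontin cTG replicate 3). Of these 77 genes, 0 passed an adjusted p of 0.05 in edgeR or in DESeq2 (0% and 0.0039% of all genes). At an unadjusted p under 0.05 there were 2 in edgeR, both target genes, beside 2.05% of all genes, and the same number in DESeq2, beside 0.847% of all genes. Outside the 77, DESeq2 also fitted genes that failed the edgeR filter, among them 1 with an unadjusted p under 0.05, *Il6*, a cytokine gene with 0, 1 and 0 counts in WT against 2, 10 and 6 in Pontin cTG hearts. Groups did not overlap for 6 of the 77 tested, 5 higher and 1 lower, a share close to the 8.33% over all genes.

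**Figure D4:**
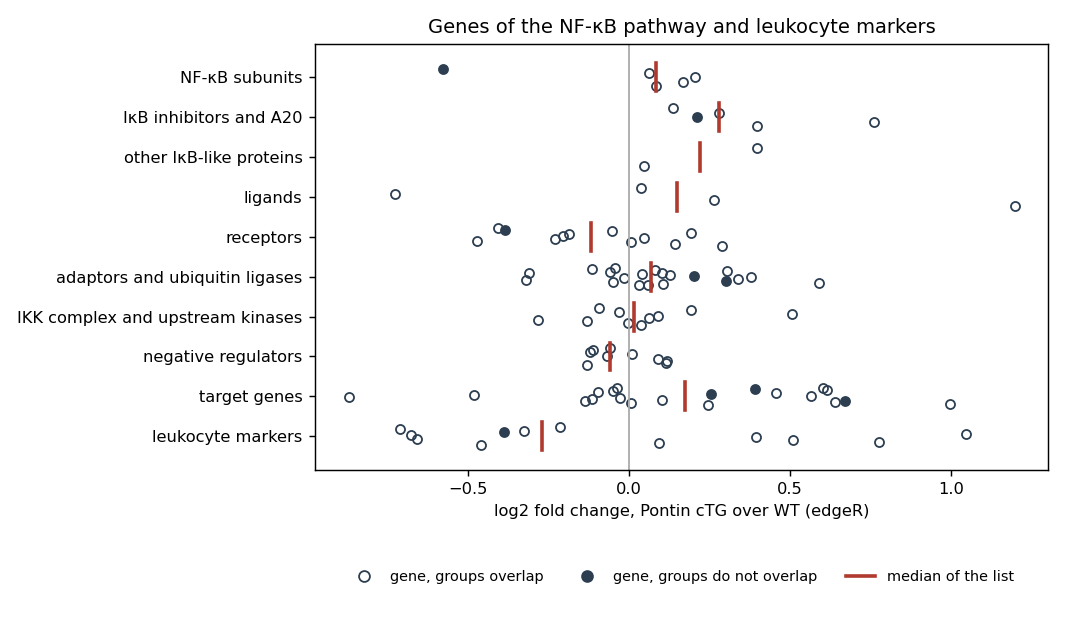
The log2 fold change between Pontin cTG and WT hearts (horizontal axis) of each tested gene of the NF-κB pathway lists and of the leukocyte markers, with filled points where the groups do not overlap and a red bar at the median of each list. The medians run from -0.27 in the leukocyte markers to 0.28 in the inhibitor genes, and *Rel* stands below the other subunits.

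Ligands of the pathway were scarce. Of 11 genes, 4 were tested, while *Tnf* had 46 counts over all 6 libraries, and *Lta* and *Tnfsf11* had 0. *Il1b*, the gene of interleukin-1β, had 3.30, 10.1 and 3.35 normalised counts in WT against 16.6, 5.14 and 17.3 in Pontin cTG hearts, with overlapping groups and a log2 fold change of 1.20 (SE 0.65). These values rest on 58 counts over all libraries, and the log2 fold change of *Il1b* was 1.92 without WT replicate 2 and the gene failed the low-count filter without Pontin cTG replicate 1 or 3. *Il33*, an alarmin gene, had the lowest log2 fold change of the list, -0.73 (SE 0.38), which was -0.24 without WT replicate 2. *Tnfsf12*, the gene of TWEAK, was the most abundant ligand, and its log2 fold change of 0.04 (SE 0.34) was -0.45 without Pontin cTG replicate 2. The median of the list changed sign with that library, from 0.15 to -0.11.

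Of 14 receptor genes, 12 were tested, 5 with higher and 7 with lower values in Pontin cTG hearts, and the median of -0.12 on the log2 scale was 0.05 when Pontin cTG replicate 3 was left out. The most abundant was *Tnfrsf12a*, the TWEAK receptor gene, with 84.6 TPM over all libraries and a log2 fold change of -0.05 (SE 0.21), which was -0.27 when Pontin cTG replicate 2 was left out and 0.14 when replicate 3 of that group was. *Il1rap*, the co-receptor of the IL-1 receptor, had groups that did not overlap, with 70.5, 102 and 71.5 normalised counts in WT against 67.4, 54.8 and 65.0 in Pontin cTG hearts. *Il1rl1*, the IL-33 receptor, and *Cd40* marked the ends of the list with log2 fold changes of -0.47 (SE 0.36) and 0.29 (SE 0.42). Without Pontin cTG replicate 2 these were -0.72 and -0.16, and *Il1rl1* was at -0.29 when replicate 3 of that group was left out.

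Among adaptors and ubiquitin ligases, 20 of 21 genes were tested, 13 with higher and 7 with lower values. *Rbck1* and *Sharpin*, which belong to the linear ubiquitin chain assembly complex, had groups that did not overlap, with log2 fold changes of 0.30 (SE 0.14) and 0.20 (SE 0.13), both higher in Pontin cTG hearts. Without Pontin cTG replicate 2 these were 0.18 and 0.10. Their partner *Rnf31*, which encodes the catalytic subunit, had overlapping groups and a log2 fold change of 0.11 (SE 0.15), between 0.03 and 0.21 with each library left out. *Irf9* overlaps *Rnf31* on the same strand, with 1921 counts against 2034. *Irak1*, a kinase of the IL-1 and Toll-like receptor route, was the most abundant with a log2 fold change of -0.05 (SE 0.19), or 0.13 without Pontin cTG replicate 2. *Traf1*, with a log2 fold change of 0.59 (SE 0.50) over few counts, was at 0.11 without Pontin cTG replicate 2, and the adaptor *Tirap* was lowest at -0.32 (SE 0.20). *Tirap* was at -0.21 without Pontin cTG replicate 3. It overlaps *Srpr* on the opposite strand, which had 8464 counts against 735.

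The kinases showed no common direction. All 10 genes of the IKK complex and its upstream kinases were tested, 5 higher and 5 lower, with a median log2 fold change of 0.02 that lay between -0.06 and 0.10 with each library left out. *Map3k14*, the kinase NIK that starts the non-canonical arm, had 83.7, 56.1 and 76.0 normalised counts in WT against 107, 122 and 77.1 in Pontin cTG hearts, with a log2 fold change of 0.51 (SE 0.25). *Tab3* had the lowest value, -0.28 (SE 0.19), and *Tab2* the highest level, with a log2 fold change of -0.09 (SE 0.20). When Pontin cTG replicate 2 was left out, *Tab3* was at -0.14 and *Tab2* at 0.11. All 9 negative regulators other than the family members were tested as well, and ranged from -0.13 in *Cyld*, a deubiquitinase (-0.0014 without Pontin cTG replicate 2), to 0.12 in *Otulin* (0.05 without that library), which counting without strand cannot separate from *Ank* where they overlap. *Tollip*, the most abundant of them, had a log2 fold change of -0.06 (SE 0.20), or 0.14 without it. Of the 3 other IκB-like genes, *Bcl3* and *Nfkbil1* were tested, with log2 fold changes of 0.05 (SE 0.28) and 0.40 (SE 0.29). *Bcl3* was at -0.22 without Pontin cTG replicate 1, and *Nfkbil1* at 0.16 without replicate 2 of that group. *Nfkbil1* overlaps *Atp6v1g2* on the opposite strand, which had 249 counts against 283.

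Target genes of NF-κB were compared next. Of 26 genes, 20 were tested, 12 with higher and 8 with lower values in Pontin cTG hearts, and the median log2 fold change was 0.17. In 3 of the 20 genes the groups did not overlap, all of them higher in Pontin cTG hearts, where 4.7% of all genes tested had groups that did not overlap in that direction. *Gadd45b*, a stress-inducible gene, was among them. It had 55.1, 95.3 and 93.9 normalised counts in WT against 144, 122.4 and 122.1 in Pontin cTG hearts, a log2 fold change of 0.67 (SE 0.24, edgeR adjusted p = 0.999). *Csf1*, the gene of the macrophage growth factor M-CSF, and *Fas*, a death receptor gene, followed with log2 fold changes of 0.26 (SE 0.13) and 0.39 (SE 0.18), both with an adjusted p of 0.999 in edgeR. *Fas* was at 0.25 without WT replicate 1.

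*Junb*, an AP-1 subunit gene of the immediate-early class, was the other target with an unadjusted p under 0.05. It had 161, 231 and 202 normalised counts in WT against 392, 271 and 217 in Pontin cTG hearts, a log2 fold change of 0.56 (SE 0.23, edgeR adjusted p = 0.999). The groups overlapped, and the log2 fold change of *Junb* was 0.31 without Pontin cTG replicate 1. *Junb* overlaps *Prdx2* on the opposite strand, which had 23088 counts against 1501. *Sod2*, the gene of mitochondrial superoxide dismutase, was by far the most abundant target with 122 TPM, and its log2 fold change was -0.04 (SE 0.16), or 0.09 without Pontin cTG replicate 2.

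Pontin cTG replicate 1 carried the highest value of 9 of the 20 target genes (45%) and of 5 of the 10 family members, where it was the highest library for 12.6% of all genes tested. This was looked at after the values had been seen. *Icam1*, the adhesion molecule gene, had 327 normalised counts there and between 124 and 190.1 in the other 5 libraries. *Ccl2*, the gene of the monocyte chemokine MCP-1, had 160 there and at most 75.2 elsewhere, and *Ptgs2*, the gene of cyclooxygenase-2, had 78.1 there and at most 30.3 elsewhere. *Cxcl1*, a neutrophil chemokine gene, had the highest log2 fold change of the list, 1.00 (SE 0.68), with 27.3 normalised counts in that library and at most 12.8 in any other, and was at 0.29 without it. *Cxcl10*, an interferon-inducible chemokine gene, had the lowest, -0.87 (SE 0.70), which was -0.19 without WT replicate 2. *Cxcl1* and *Cxcl10* had 69 and 60 counts over all libraries. It overlaps *Art3* on the opposite strand, which had 19804 counts against 60. Without Pontin cTG replicate 1 the median log2 fold change of the target genes was 0.01, and it was 0.05 with DESeq2, 0.04 without a low-count filter, 0.06 with at least 10 counts in every library and 0.33 with limma-voom and sample quality weights.

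**Figure D5:**
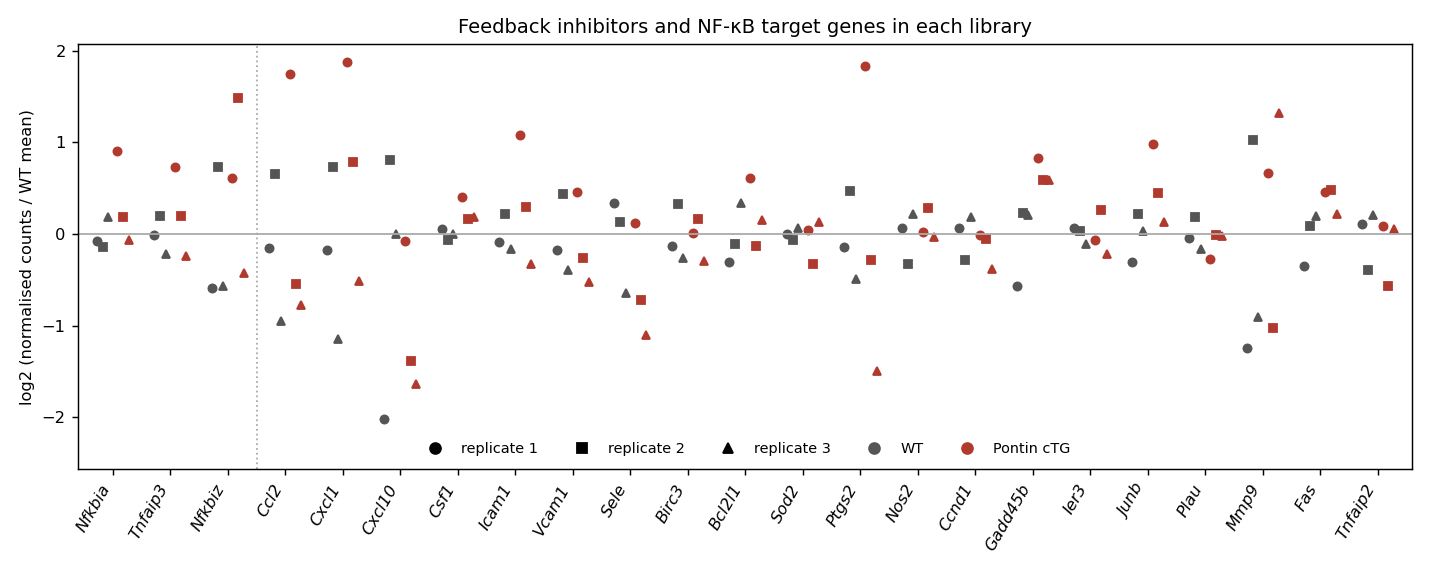
Normalised counts of *Nfkbia*, *Tnfaip3* and *Nfkbiz* (left of the dotted line) and of the 20 tested target genes in each library, as log2 of the ratio to the WT mean (WT grey, Pontin cTG red, a symbol for each replicate). Pontin cTG replicate 1 (red circles) stands highest for *Nfkbia*, *Tnfaip3*, *Ccl2*, *Cxcl1*, *Icam1* and *Ptgs2*.

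Since c-Rel is known from immune cells, leukocyte markers were measured in the same libraries. Of 18 markers, 12 were tested, 5 with higher and 7 with lower values in Pontin cTG hearts, and their log2 fold changes had a median of -0.27. This median was 0.11 without WT replicate 2 and between -0.39 and -0.13 without any other library. At an unadjusted p under 0.05 there was 1 marker, *Mrc1*, in edgeR and 3 in DESeq2, beside 2.05% and 0.847% of all genes, and 0 passed an adjusted p of 0.05 in either. Their summed level was 298, 592 and 325 TPM in WT against 355, 407 and 272 TPM in Pontin cTG hearts, with *Lyz2*, the lysozyme gene of macrophages and neutrophils, as the most abundant. WT replicate 2 thus had the highest leukocyte sum, and the ranges overlapped. *Rel* was highest in WT replicate 1, whose leukocyte sum was the second lowest of the 6, and without WT replicate 2 its log2 fold change was -0.62.

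The macrophage markers *Mrc1*, *Csf1r* and *Cd68* had log2 fold changes of -0.66 (SE 0.29), -0.39 (SE 0.18) and -0.71 (SE 0.36). For *Csf1r* the groups did not overlap, beside 8.33% of all genes tested. Without WT replicate 2, the highest library for all 3 markers, the log2 fold changes were -0.25, -0.22 and -0.15. *Csf1r* overlaps *Hmgxb3* on the opposite strand, which had 1599 counts against 4590. *Lyz2* was at -0.22 (SE 0.24), or 0.11 without WT replicate 2. *Ptprc*, the pan-leukocyte gene of CD45, had 129, 324 and 141 normalised counts in WT against 151, 207 and 115 in Pontin cTG hearts, which overlapped. Of the neutrophil markers, *S100a9* had the highest log2 fold change of the list, 1.05 (SE 0.88), with 52.7 normalised counts in Pontin cTG replicate 1, without which it was -0.08. T and B cell markers were scarce, and 6 of them failed the filter, with totals of 6 counts for *Cd3e* and 42 for *Ms4a1* over all libraries. The 2 that were tested, *Cd4* and *Cd79b*, had 92 and 59 counts in all, with overlapping groups and log2 fold changes of 0.39 (SE 0.37) and 0.51 (SE 0.77). *Cd4* was at 0.25 without WT replicate 3. The value of *Cd79b* was -0.0029 without WT replicate 1 and 1.14 when WT replicate 2 was left out. The part of leukocyte content in the values of *Rel* was not tested.

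Other cell types were measured in the same way, and their medians moved with single libraries. The 6 endothelial markers had a summed level of 334 ± 15.7 TPM in WT against 342 ± 79.5 TPM in Pontin cTG hearts (SD, n = 3 each) and a median log2 fold change of 0.02, or -0.12 without Pontin cTG replicate 2. Among them, *Vwf*, the gene of von Willebrand factor, was lowest at -0.72 (SE 0.43), with 2057 normalised counts in WT replicate 2 and between 614 and 768 in the other libraries, and was at 0.09 without that library. *Tie1* was highest at 0.16 (SE 0.17), and *Cdh5*, the gene of VE-cadherin and the most abundant, was at 0.02 (SE 0.18). Both were below 0 without Pontin cTG replicate 2 (-0.02 and -0.15).

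The 6 fibroblast markers summed to 349 ± 83.0 against 346 ± 78.1 TPM. Their median of -0.01 was -0.22 without Pontin cTG replicate 2 and 0.19 when WT replicate 2 was left out. *Pdgfra*, a receptor gene of fibroblasts, was lowest at -0.41 (SE 0.21), or -0.16 without WT replicate 2. *Tcf21* was highest at 0.22 (SE 0.26), between 0.04 (WT replicate 3) and 0.40 (Pontin cTG replicate 1) with a library left out, and *Dcn*, the decorin gene and the most abundant, was at -0.05 (SE 0.18), or 0.11 without WT replicate 2.

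The 7 cardiomyocyte markers had a median of -0.04, which lay between -0.07 and 0.03 with each library left out. *Tnni3* was higher and *Actc1* lower in every Pontin cTG heart than in any WT heart, with log2 fold changes of 0.30 (SE 0.14) and -0.11 (SE 0.11). Over all genes tested, 8.33% had groups that did not overlap. *Ryr2*, the calcium release channel gene, was lowest of the list at -0.34 (SE 0.26), or -0.09 without Pontin cTG replicate 2. The 5 erythroid markers had a median of 0.0045, between -0.23 and 0.29 with each library left out, from -0.15 (SE 0.40) in *Hba-a2* to 0.07 (SE 0.23) in *Hbb-bs*. Both turned sign with a library left out, from -0.40 to 0.29 in *Hba-a2* and from -0.05 to 0.27 in *Hbb-bs*. In the endothelial, fibroblast, cardiomyocyte and erythroid lists 0 genes passed an adjusted p of 0.05 in edgeR or DESeq2. At an unadjusted p under 0.05 there were 0 in edgeR and 1, a cardiomyocyte marker, in DESeq2, beside 2.05% and 0.847% of all genes. The part of these cell types in the values of the family was not tested.

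The genes with the pattern most like *Rel* over the 6 libraries were found by the mean absolute difference between their log2 CPM values, each centred on the gene's own mean. They were *Gm4739*, *Strip2*, *Ndnf*, *Rmdn2* and *Gm49891*, with differences of 0.071 to 0.087, where the median over all genes tested was 0.33. *Strip2*, which encodes a protein of the striatin-interacting phosphatase complex, was the most abundant of them. It had 2283, 2005 and 1878 normalised counts in WT against 1623, 1196 and 1488 in Pontin cTG hearts, so that, as for *Rel*, WT replicate 1 was highest and Pontin cTG replicate 2 lowest. *Ndnf*, the gene of a secreted neurotrophic factor, had 79.3, 60.6 and 54.8 in WT against 50.8, 45.4 and 46.8 in Pontin cTG hearts. Of the other family members, *Relb* was nearest to *Rel*, with a difference of 0.30, and *Nfkbiz* farthest, with 0.81.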

How the data were processed

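RNA was taken from the hearts of 3 Pontin cTG and 3 WT mice, a library each. The deposited values are whole-number counts per Ensembl gene, not normalised. The methods of the study name Trimmomatic, STAR, mm10 and Gencode M25 for these counts, whereas the submitters' processing notes name fastp, HISAT2, featureCounts and GRCm39. Which of these tools made the counts cannot be told, and whether strand was used in counting is not given in the sources used here. The table's coordinates differ for most genes from GRCm38 (mm10), the build named in the methods of the study. Of 52073 genes shared with GENCODE M21 on GRCm38, 1472 had the same coordinates. Positions are those of GENCODE M21 on GRCm38, matched on the Ensembl identifier. Columns were matched by the names in the sample labels (0 left unmatched), and 0 rows lacked a gene name.

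Genes that passed filterByExpr (minimum count 10) were scaled by TMM and fitted with edgeR 4.0.16 in R 4.3.3 (glmQLFit with robust estimation, glmQLFTest), with Benjamini-Hochberg adjustment over 13888 genes. The study used DESeq2, run here as an alternative (1.42.0) beside limma-voom (limma 3.58.1). Standard errors are the log2 fold change divided by the square root of F. Each count was divided by its library's TMM-scaled size and multiplied by the geometric mean size (normalised counts), and TPM uses the table's gene length. With 3 mice against 3, the smallest p of an exact permutation test is 0.1, so none was run. The scripts were tested on simulated data.

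The family, the gene lists and the rule for named genes were chosen with earlier results of these data known. Named were the 10 members, *Ruvbl1*, in each list the genes with the largest and smallest log2 fold change and the highest TPM and those with an unadjusted p under 0.05, and the 5 genes most like *Rel*. Other genes were named after their values had been seen. The replicate numbers were checked for pairing: libraries with the same number deviated from their groups with correlations of 0.0772, 0.432 and 0.193 for replicates 1 to 3. The smallest correlation set to pair libraries was 0.1, which replicate 1 missed and the others passed, so these values do not settle the pairing. The libraries were treated as unpaired, and a fit with replicate as a block is given below. All pairs of libraries differed by more than sampling noise (chi-square per gene of at least 5.62).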

Additional observations from a re-analysis of the deposited data

How the results depend on the processing

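The log2 fold change of *Rel* stayed below 0 in all 15 alternatives, from -0.65 to -0.46, each within the replicate SD of 0.16 on the log2 scale. Those of *Rela*, *Nfkb1*, *Nfkb2* and the 5 inhibitor genes stayed above 0 in all 15, and that of *Relb* in 13. The number of genes past an adjusted p of 0.05 was 0 in edgeR, 1 with DESeq2, 3 without a filter on low counts and 3 with limma-voom and sample quality weights. It ran from 0 to 3 with each library left out, 3 being reached without Pontin cTG replicate 2. Members and pathway genes past that threshold numbered 0 in all 15. Pathway genes at an unadjusted p under 0.05 numbered 3, but 7 without a low-count filter, 7 with the replicate block, 10 with limma-voom and 1 to 9 with a library left out. Over all genes there were 285, but 478 without a low-count filter, 794 with limma-voom, and with a library left out from 122 (WT replicate 1) to 686 (Pontin cTG replicate 2). The replicate block gave 499 over all genes, and the log2 fold change of *Rel* was -0.57. Of the 6 libraries, 2 correlated best with the library of their own number in the other group. The order of the levels was the same with mitochondrial genes left out of the TPM total. That step scales all other genes of a library alike, so it could hardly change the order. Genes removed by the low-count filter, such as *Tnf* and *Il6*, entered DESeq2 and the fit without that filter, but not the edgeR fit reported, and *Il1b*, with 58 counts in all, failed that filter without Pontin cTG replicate 1 or 3. The causes of these shifts were not tested.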
